A study of Mus musculus with 2 samples.

Results

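The genes of 10 sialic-acid-binding and C-type lectin receptors were examined in sorted alveolar macrophages. They comprised 4 Siglecs, Siglecf, Siglec1, Siglece and Cd33, and 6 C-type lectin receptors, Mrc1, Clec7a, Clec4n, Clec4d, Clec4e and Clec4a2. The genes were taken by name among the 22180 genes that had a feature with a single symbol in the platform annotation, and each of the 10 had exactly 1 such feature (a feature is 1 transcript-level set of probes). They were chosen by name and not by their values, with earlier results of these data known. RNA of cells from lungs of mice that were 8 to 10 weeks old was hybridised to 2 Affymetrix arrays. One array was labelled Lysm-Cre Ssu72fl/fl, for mice with a floxed Ssu72 gene and the Lysm-Cre allele, and the other was labelled Lysm-Cre, for mice with that allele. Both groups therefore carried Cre, which Lysm-Cre expresses from the lysozyme 2 locus in macrophages, monocytes and neutrophils. Neither the number of mice behind an array nor the markers of the sort are given in the sources used here.

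Siglecs are surface lectins that bind sialic acid at the ends of glycan chains. Siglecf, Siglece and Cd33 belong to the CD33-related group, several of which recruit tyrosine phosphatases through cytoplasmic motifs and dampen activating signals, whereas Siglec1 is an adhesion receptor with a long extracellular part. C-type lectin receptors bind sugars and lipids of microbes and of dying cells: Clec7a (dectin-1) signals to the kinase Syk through its own tail, Clec4n (dectin-2), Clec4d and Clec4e (Mincle) do so through the adaptor chain encoded by Fcer1g, Clec4a2 carries an inhibitory motif, and Mrc1, the mannose receptor, is endocytic. In the lung, high surface Siglec-F together with the integrin CD11c is commonly used to identify mouse alveolar macrophages.

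Each genotype had 1 array, so genotypes could not be tested against each other, and having 2 arrays in all limits how precise any value is. Values are the deposited log2 signals, a difference is the array labelled Lysm-Cre Ssu72fl/fl minus the array labelled Lysm-Cre, and the spread given beside it is a robust SD (from absolute deviations about the median) of the differences among the compared genes that shared its bin when mean signals were cut into 20 bins with equal numbers of genes. That spread is scatter between genes and not between animals. A floor of 4.65, the median of all values on both arrays, marks where most features lie, and genes that exceeded it on either array were compared. This held for all 10 receptor genes and for 13015 genes in all. Ssu72 itself read 4.998 on the array labelled Lysm-Cre Ssu72fl/fl and 4.862 on the Lysm-Cre array, and where its probes lie relative to the deleted part was not known here. Every direction below therefore rests on the labels alone. Of the alveolar macrophage markers, all 10 with a single-symbol feature were above the floor on both arrays, with median signals of 6.89 (Lysm-Cre Ssu72fl/fl) and 7.24 (Lysm-Cre). All 10 read lower on the array labelled Lysm-Cre Ssu72fl/fl, with a median difference of -0.32. After the level adjustment described below, 6 were lower and 4 higher (median -0.038). Among all compared genes, 51.9% were lower as deposited and 45.6% after that adjustment. Of 7 markers of alveolar type 2 epithelial cells, all compared, 5 were lower and 2 higher (median difference -0.20). When level-adjusted, 4 were lower and 3 higher (median -0.018). Among them Sftpc, a surfactant gene of alveolar epithelium, read 8.35 (Lysm-Cre Ssu72fl/fl) and 8.71 (Lysm-Cre), a difference of -0.36 (level-adjusted 0.11).

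The arrays differed by an amount that varied with signal. The median difference over features was 0.0080 at mean levels from 4 to 5, -0.037 from 5 to 6, -0.28 from 6 to 7 and -0.44 from 7 to 8. A level-adjusted difference, with a smooth curve through the medians of narrow level bins removed, is therefore given beside the deposited one. Of the receptor genes, Mrc1 and Clec7a lie where the curve is far from 0, and the other 8 lie below a mean level of 6.

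Most of the receptors read lower on the array labelled Lysm-Cre Ssu72fl/fl, Cd33 by the most, and none differed by 2-fold. On the deposited scale 8 of the 10 were lower and 2 higher (median difference -0.17), against 51.9% lower, 48.1% higher and a median of -0.0085 over all compared genes. After level adjustment 6 were lower and 4 higher (median -0.092), against 45.6% lower and 0.016 over all compared genes, because Mrc1 and Clec7a then turned to small positive values. Siglece exceeded the floor only on the Lysm-Cre array, so on the deposited scale it could only count as lower. Of the receptors 9 were above the floor on both arrays, as were 10934 of the 13015 compared genes. The shares of all compared genes past 2-fold were 0.0845% on the lower side and 0.0307% on the higher side, so 0 of 10 receptors is near that background. At the lower threshold of 1.5-fold, Cd33 alone was lower, against 1.37% of all compared genes, and no receptor was higher, against 0.315%. Cd33 was just past that threshold as deposited (-0.59), but short of it when level-adjusted (-0.48) or quantile-normalized (-0.49).

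**Figure D1:**
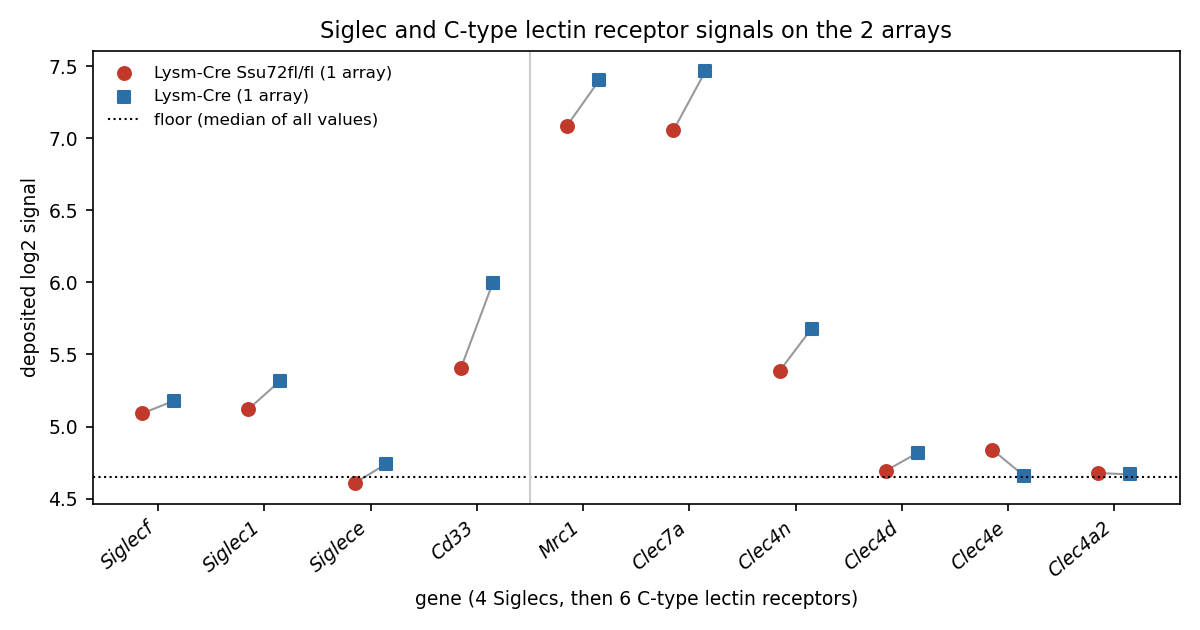
Deposited log2 signal (vertical axis) of the 10 receptor genes on the array labelled Lysm-Cre Ssu72fl/fl (red circles) and the Lysm-Cre array (blue squares), 1 array each, with the floor as a dotted line. Mrc1 and Clec7a lie above 7 on both arrays, 4 genes sit within 0.2 of the floor on both arrays, and the widest gap is that of Cd33, 5.40 (Lysm-Cre Ssu72fl/fl) against 6.00 (Lysm-Cre).

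Cd33 encodes the myeloid Siglec after which the CD33-related group is named. It read 5.40 on the array labelled Lysm-Cre Ssu72fl/fl and 6.00 on the Lysm-Cre array, a difference of -0.59 (1.51-fold lower) against a spread at that level of 0.23. This was rank 176 from the lowest among the 13015 compared genes. Among the 651 compared genes with mean levels from 5.49 to 5.73, where the median difference was -0.069, it was 12th from the lowest. Level adjustment left -0.48 and quantile normalization -0.49, so Cd33 stayed beyond the spread of its level under each scaling tried.

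The other Siglecs showed smaller differences of the same sign. Siglec1 (sialoadhesin, CD169), a receptor of tissue macrophages that captures sialylated particles, read 5.12 on the array labelled Lysm-Cre Ssu72fl/fl and 5.32 on the Lysm-Cre array, a difference of -0.20 (level-adjusted -0.16) against a spread of 0.19. Siglece, which recruits the phosphatases SHP-1 and SHP-2, was at 4.61 on the array labelled Lysm-Cre Ssu72fl/fl, under the floor, and at 4.74 on the Lysm-Cre array, 0.090 above it. Its deposited difference was -0.13, and -0.090 with the floor applied, which is a bound, against a spread of 0.090. Siglecf, whose product is commonly used to identify mouse alveolar macrophages, read 5.09 and 5.18 on the arrays labelled Lysm-Cre Ssu72fl/fl and Lysm-Cre. The difference of -0.088 (level-adjusted -0.062) was smaller than the spread of 0.16. Its mean signal was at the 82.3rd percentile of named genes, rank 3917 of 22180, while Cd33 had rank 1360 and Siglec1 rank 3262. A rank here places the signal of a probe set, which depends on its probes as well as on the transcript. Eosinophils also carry Siglec-F: of 6 eosinophil markers only Prg2 and Epx were above the floor, Epx at 4.93 (Lysm-Cre Ssu72fl/fl) and 4.76 (Lysm-Cre), and Ccr3 and Il5ra were below it on both arrays.

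Siglecf, Cd33 and Siglece lie on chromosome 7, with Siglecg next to Siglecf, and Cd33 5 protein-coding genes from Siglece. Siglecg, a Siglec known from B cells, read 5.41 on the array labelled Lysm-Cre Ssu72fl/fl and 5.28 on the Lysm-Cre array (0.12 against a spread of 0.20), the opposite sign to its neighbour. The start-site regions of Cd33 and Siglecf are shown because these related genes had the largest and the smallest difference among the 4 Siglecs examined and share sequence. Both are 300-base RefSeq regions of build GRCm38.p6, from 250 bases before the start site to 50 after it, at chr7:43533122-43533421 on the minus strand for Cd33 and chr7:43351091-43351390 on the plus strand for Siglecf. Capitals mark GAGGAA, the core bound by the myeloid factor PU.1, and TGTGGT, the core bound by RUNX factors, each on either strand (TTCCTC and ACCACA).
Cd33: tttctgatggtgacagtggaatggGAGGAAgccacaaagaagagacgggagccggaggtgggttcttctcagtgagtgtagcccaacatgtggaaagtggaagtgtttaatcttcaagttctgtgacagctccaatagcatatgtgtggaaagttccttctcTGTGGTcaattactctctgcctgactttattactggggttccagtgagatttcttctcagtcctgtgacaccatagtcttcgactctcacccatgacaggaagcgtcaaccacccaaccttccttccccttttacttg
Siglecf: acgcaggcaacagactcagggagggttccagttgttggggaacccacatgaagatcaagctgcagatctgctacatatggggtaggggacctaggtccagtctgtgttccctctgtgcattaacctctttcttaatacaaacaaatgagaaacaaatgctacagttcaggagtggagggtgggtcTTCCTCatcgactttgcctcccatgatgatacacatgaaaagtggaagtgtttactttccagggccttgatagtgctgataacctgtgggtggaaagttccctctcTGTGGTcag
Each region held 1 match to each core. The longest run they shared was 16 bases, aaagtggaagtgttta, against at most 10 bases in any other of the 28 pairs among the 8 receptor genes with a region in the table. The motifs were chosen after the sequences had been seen, and a match is a description of letters, not a bound site.

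The mannose receptor and dectin-1 gave the highest receptor signals, and their direction depended on the scaling. Mrc1, which takes up mannosylated glycoproteins, read 7.09 on the array labelled Lysm-Cre Ssu72fl/fl and 7.40 on the Lysm-Cre array, a difference of -0.31 against a spread of 0.33, but 0.14 when level-adjusted and 0.098 after quantile normalization. Clec7a, the receptor for fungal beta-glucans, read 7.05 on the array labelled Lysm-Cre Ssu72fl/fl and 7.46 on the Lysm-Cre array, a difference of -0.41 against 0.33, but 0.041 when level-adjusted and -0.0030 after quantile normalization. Their mean signals ranked 208 and 206 of the 22180 named genes. The 204 features with mean levels from 7 to 7.5 had a median difference of -0.44, a robust SD of 0.34 and 82.8% lower values, so neither gene stood below its level. In the plane of the 2 log2 signals, which over 2 arrays is a weak measure of likeness, the nearest named gene was Zfp36l2 for Mrc1 (distance 0.033) and Ost4 for Clec7a (0.032). A radius of 0.1 held 9 genes around Mrc1 and 6 around Clec7a.

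**Figure D2:**
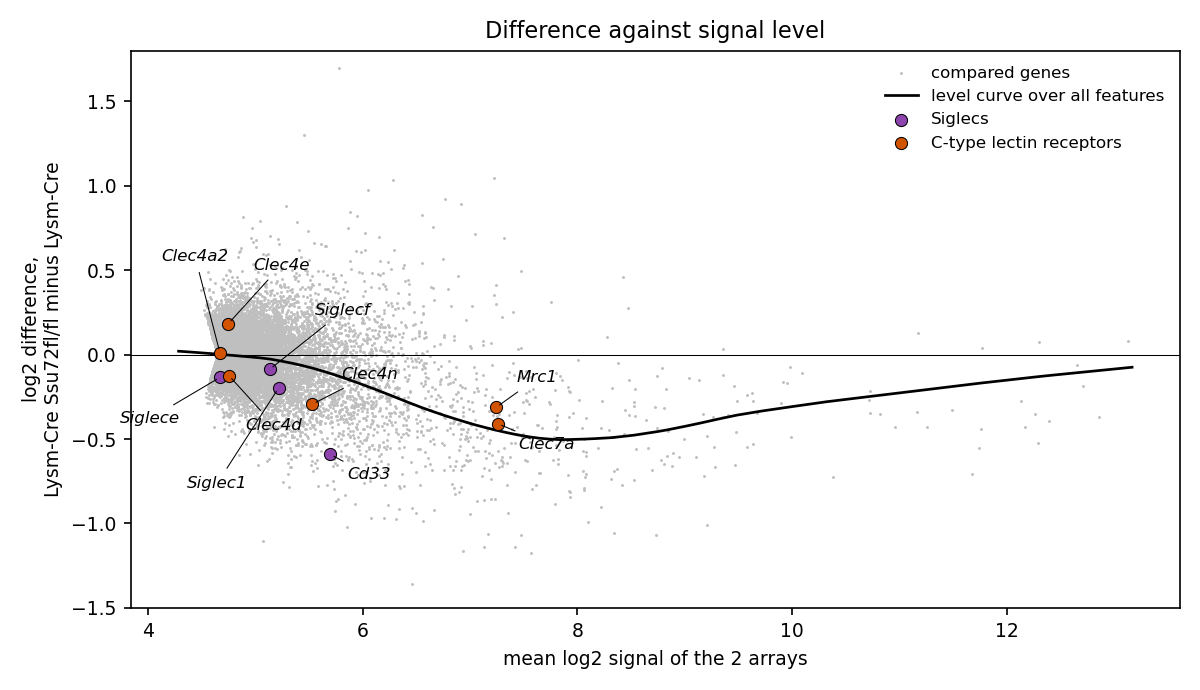
Log2 difference, the array labelled Lysm-Cre Ssu72fl/fl minus the Lysm-Cre array (vertical axis), against the mean log2 signal of the 2 arrays, for 13015 compared genes (grey), the 4 Siglecs (purple) and the 6 C-type lectin receptors (orange), with the level curve in black. Relative to the curve, Mrc1 (0.14) and Clec7a (0.041) sit slightly above it and Cd33 (-0.48) below it.

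The start-site regions of these highest-signal genes, from the same RefSeq table, lie at chr2:14229164-14229463 on the plus strand for Mrc1 and chr6:129472730-129473029 on the minus strand for Clec7a (the first of 2 entries), with the same cores in capitals.
Mrc1: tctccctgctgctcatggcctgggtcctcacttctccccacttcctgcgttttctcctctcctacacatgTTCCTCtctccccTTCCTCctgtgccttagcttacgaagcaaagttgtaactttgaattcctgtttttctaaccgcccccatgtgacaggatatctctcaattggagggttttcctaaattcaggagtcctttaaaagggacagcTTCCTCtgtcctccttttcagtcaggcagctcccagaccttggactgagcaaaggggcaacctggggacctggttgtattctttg
Clec7a: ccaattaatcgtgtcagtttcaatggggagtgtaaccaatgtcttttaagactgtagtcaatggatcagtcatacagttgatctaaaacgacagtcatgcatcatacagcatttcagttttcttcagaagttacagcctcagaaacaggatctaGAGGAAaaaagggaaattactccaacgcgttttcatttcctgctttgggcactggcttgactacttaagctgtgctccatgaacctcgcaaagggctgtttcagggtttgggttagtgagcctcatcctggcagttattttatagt
Mrc1 held 3 matches to the PU.1 core, all on the opposite strand, and Clec7a held 1. Of the 8 receptor genes with a region in the table, 7 held GAGGAA on either strand, against 28.3% of the 32851 regions in it, and 3 held TGTGGT, against 16.8%. The cores were chosen after these sequences had been seen, so no excess can be read from these counts. The receptor counts are also of genes, with a match in any entry, whereas the shares are of regions. Clec4a2 had neither core, and Siglec1 and Clec4n are not in the table.

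The Clec4 receptors differed in sign. Clec4n, which binds fungal mannans, read 5.39 on the array labelled Lysm-Cre Ssu72fl/fl and 5.68 on the Lysm-Cre array, a difference of -0.29 against a spread of 0.23. When level-adjusted it was -0.21, inside that spread. Clec4d, which pairs with Mincle and binds the mycobacterial lipid cord factor, was at 4.69 on the array labelled Lysm-Cre Ssu72fl/fl and 4.82 on the Lysm-Cre array (-0.12 against a spread of 0.11), with both values within 0.17 of the floor. Clec4e, which binds the same lipid and the nuclear protein SAP130 released by dead cells, had the opposite sign. It read 4.84 on the array labelled Lysm-Cre Ssu72fl/fl and 4.66 on the Lysm-Cre array, a difference of 0.18 (level-adjusted 0.18) against a spread of 0.11. Its Lysm-Cre value lay only 0.0061 above the floor, so the size of that difference is not well set. Clec4a2 (DCIR), an inhibitory receptor of dendritic cells and monocytes, was at 4.68 on the array labelled Lysm-Cre Ssu72fl/fl and 4.67 on the Lysm-Cre array, 0.010 apart and at the floor on both, so no difference was detectable at this signal.

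Neutrophils express Clec4d and Clec4e strongly. Of 10 neutrophil markers 7 were compared, 6 of them lower and 1 higher (median -0.056), with median signals over the 10 markers of 4.78 (Lysm-Cre Ssu72fl/fl) and 4.76 (Lysm-Cre). S100a9, a calcium-binding protein gene abundant in neutrophils, read 4.95 (Lysm-Cre Ssu72fl/fl) and 4.98 (Lysm-Cre), while Ly6g and Cxcr2 were below the floor on both arrays. Markers of interstitial macrophages and monocytes, which carry Cd33 or Mrc1, also mostly read lower: 8 of 9 compared interstitial macrophage markers (median -0.39, level-adjusted -0.28) and 7 of 8 monocyte markers (median -0.31, level-adjusted -0.26), with Cx3cr1 and Ccr2 in both lists. Over all compared genes 51.9% were lower. H2-Ab1, an MHC class II gene in the interstitial macrophage list but not particular to those cells, was more than 2-fold lower (8.19 against 9.26 in Lysm-Cre, -1.07, level-adjusted -0.61). Of 7 dendritic cell markers 4 were compared, and all 4 were lower (median -0.21, level-adjusted -0.030 with 3 lower). Ly6c2 exceeded the floor only on the Lysm-Cre array, so as deposited this monocyte marker could only count as lower. The part of these marker lists, and of the alveolar macrophage markers, in the receptor differences was not tested. In such bulk arrays, fewer cells of a type and less RNA per cell cannot be told apart.

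**Figure D3:**
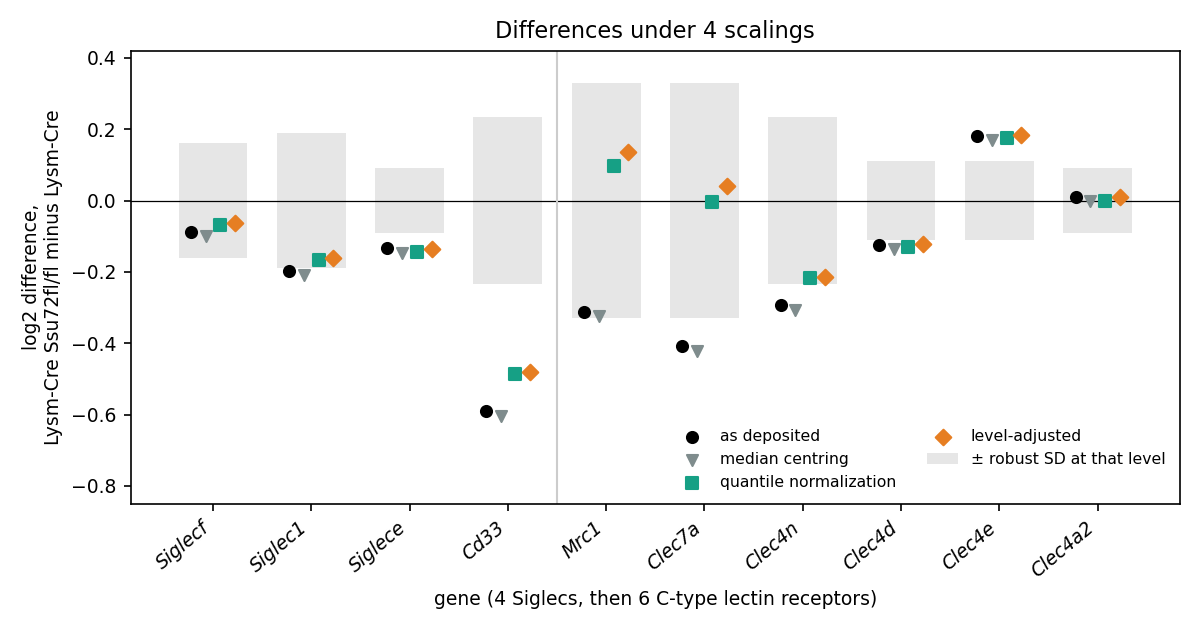
Log2 difference of each receptor gene, the array labelled Lysm-Cre Ssu72fl/fl minus the Lysm-Cre array, as deposited (black circles), after median centring (grey triangles), after quantile normalization (green squares) and level-adjusted (orange diamonds), over a grey band of 1 robust SD either side of 0 at that level. Cd33, Siglece and Clec4d lie below their bands and Clec4e above its band under all 4 scalings, whereas Mrc1 moves from -0.31 to 0.14. Siglece, Clec4d and Clec4e have signals near the floor. With the floor applied, the deposited difference of Siglece (-0.090) does not exceed its spread of 0.090.

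Clec4a2, Clec4n, Clec4d and Clec4e lie together on chromosome 6. In the gene order of the RefSeq table, Clec4a1, Clec4a3, Clec4a4, Clec4b1, Clec4a2, Clec4b2, Clec4n, Clec4d and Clec4e form a run of 9 listed lectin genes, of which 5 were compared and 4 were below the floor on both arrays. The fifth compared gene, Clec4a3, read 5.42 on the array labelled Lysm-Cre Ssu72fl/fl and 5.46 on the Lysm-Cre array, a difference of -0.039 against a spread of 0.20. Differences within the run thus went from -0.29 for Clec4n to 0.18 for Clec4e. The Clec4a and Clec4b genes are close copies, and cross-hybridisation between their probes was not tested. Clec7a lies in a separate lectin cluster of the same chromosome, next to Clec1a and Olr1. Olr1, the oxidised LDL receptor, read 6.90 on the array labelled Lysm-Cre Ssu72fl/fl and 7.499 on the Lysm-Cre array (-0.60, level-adjusted -0.15 against a spread of 0.33), and Clec1a was below the floor on both.

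Lectins outside the 10 genes also mostly read lower on the deposited scale, and Olr1 (-0.60) by about as much as Cd33 (-0.59), though not when level-adjusted (-0.15 and -0.48). Among other C-type lectins, 18 were compared: 16 were lower, 2 were higher and the median was -0.13 (level-adjusted -0.11, 13 lower), and 14 further listed ones were below the floor. Over all compared genes 51.9% were lower as deposited and 45.6% when level-adjusted. Of the 18, 13 were above the floor on both arrays. Cd69, Clec1b, Clec2h and Clec5a exceeded it only on the Lysm-Cre array, so as deposited they could only count as lower. Mgl2 exceeded it only on the other array, so it could only count as higher. Olr1 and the Langerhans cell lectin Cd207 (-0.45, 4.95 against 5.40 in Lysm-Cre, level-adjusted -0.42) were lowest, and Clec4f, the Kupffer cell receptor, was highest (0.31, 5.17 against 4.86 in Lysm-Cre, spread 0.15). Cd209a, a DC-SIGN homologue, had 2 features that disagreed in level, 8.65 and 4.85 on the array labelled Lysm-Cre Ssu72fl/fl against 8.97 and 4.88 on the Lysm-Cre array. Of the 5 other Siglecs 4 were lower and 1 higher (median -0.090, level-adjusted -0.00072), from Cd22 (-0.24) and Mag (-0.19) to Siglecg (0.12).

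Genes that carry the signal of the activating lectins were divided. Among adaptors, kinases and relays, 20 were compared: 14 were lower, 6 were higher and the median was -0.13 (level-adjusted -0.059, 12 lower), and none differed by 2-fold. The share lower among all compared genes was 51.9% as deposited and 45.6% when level-adjusted. Of the 20, 19 were above the floor on both arrays. Map3k14 exceeded it only on the Lysm-Cre array, so as deposited it could only count as lower. Fcer1g, the adaptor chain of Clec4n, Clec4d and Clec4e, read 7.07 on the array labelled Lysm-Cre Ssu72fl/fl and 7.67 on the Lysm-Cre array (-0.60, but -0.14 when level-adjusted, against a spread of 0.33). Malt1, the protease of the CARD9 complex, read 5.06 against 5.57 in Lysm-Cre (-0.51, level-adjusted -0.47, against a spread of 0.19). Syk, chosen for mention after its value was seen, read 5.46 against 5.73 in Lysm-Cre (-0.27, level-adjusted -0.18, spread 0.23). Card9, the adaptor below Syk, was higher (5.54 against 5.41 in Lysm-Cre, 0.14, level-adjusted 0.21, spread 0.20). The NF-kappaB subunit gene Nfkb2 was higher too (5.43 against 5.12 in Lysm-Cre, 0.31, level-adjusted 0.35, spread 0.19). Among 9 kinases and phosphatases that act with inhibitory Siglecs, 7 were lower and 2 higher (median -0.094, level-adjusted -0.091). Their ends were Ptpn6, which encodes SHP-1 (6.26 against 6.75 in Lysm-Cre, -0.49, level-adjusted -0.18, spread 0.33), and the ubiquitin ligase gene Cblb (5.43 against 5.17 in Lysm-Cre, 0.25, level-adjusted 0.30, spread 0.19).

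**Figure D4:**
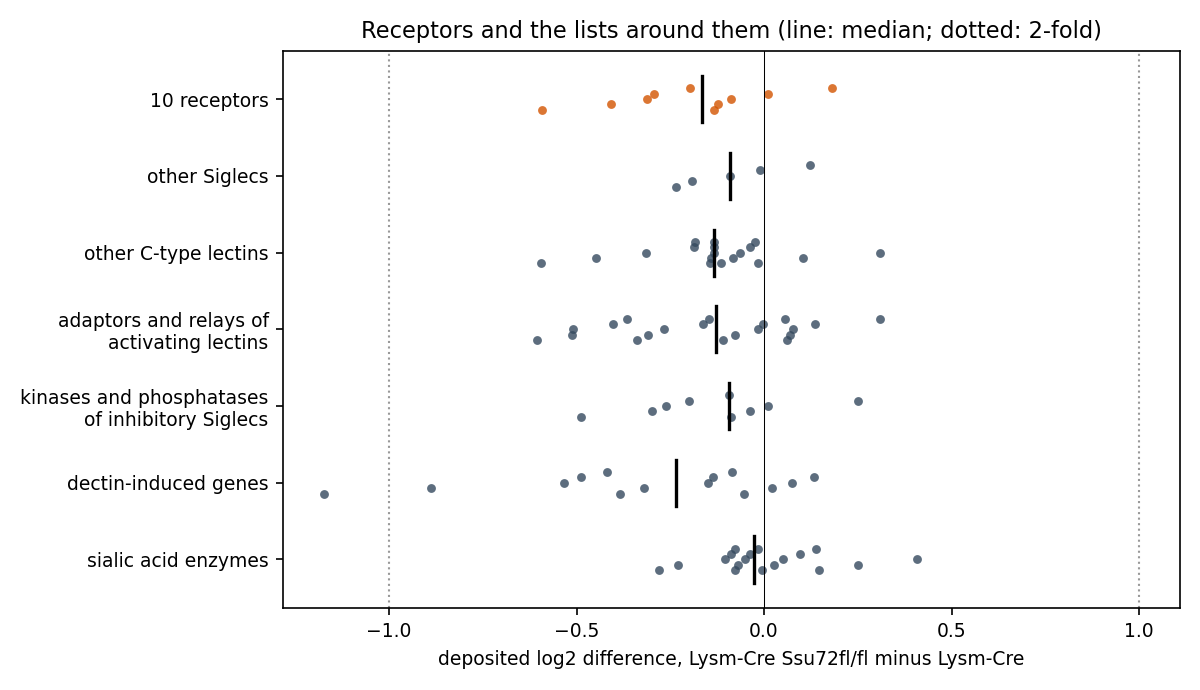
Deposited log2 difference, the array labelled Lysm-Cre Ssu72fl/fl minus the Lysm-Cre array (horizontal axis), of every compared gene (points) in the 10 receptors and 6 surrounding gene lists, with list medians as black lines and 2-fold as dotted lines. Only Ccl3, at -1.17, lies past 2-fold, and the receptor median is -0.17; medians of the receptors and of the dectin-induced genes are closer to 0 when level-adjusted (-0.092 and -0.054).

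Genes known to be induced through dectin receptors held 1 gene past 2-fold, Ccl3, and the other surrounding lists, which leave out the cell type markers, held none. Of the 14 compared, 11 were lower and 3 were higher, and the median of -0.23 shrank to -0.054 when level-adjusted (9 lower). For this list and the next, the share lower among all compared genes was 51.9% as deposited and 45.6% when level-adjusted. As deposited, 0.0845% of all compared genes were at least 2-fold lower. The chemokine genes Ccl3 (6.98 against 8.15 in Lysm-Cre, -1.17, level-adjusted -0.69) and Ccl4 (5.79 against 6.68 in Lysm-Cre, -0.89, level-adjusted -0.65) were lowest, against a spread of 0.33, and Egr3 (0.13) and Cxcl1 (0.074) highest. Il10 and Il23a were below the floor on both arrays. Genes listed for the synthesis, transfer or removal of sialic acid, the sugar that Siglecs bind, were spread around 0. Of 18 compared, 11 were lower and 7 were higher, and the median was -0.028 (level-adjusted -0.010). The list is not of sialic acid enzymes alone, as it also holds genes for transporters and a sulfotransferase. Of the 18, 16 were above the floor on both arrays. Slc17a5 and St6galnac2 exceeded it only on the Lysm-Cre array, so as deposited they could only count as lower. The sialyltransferase gene St3gal1 was highest (5.43 against 5.02 in Lysm-Cre, 0.41, level-adjusted 0.45, spread 0.19), followed by the sialidase gene Neu4 (0.25), and St6galnac6 (-0.28, level-adjusted -0.15, spread 0.26) and St3gal4 (-0.23) were lowest.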

How the data were processed

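RNA from sorted alveolar macrophages was measured on 2 arrays, 1 per genotype, with groups taken from the genotype label; 6 ug of total RNA went into the biotin-labelled cRNA, per the labels' protocols. The authors deposited 1 log2 expression value per feature; that the scale is log2 was inferred from the range, 4.23 to 13.5. MAS5 is named without its role, per the submitters' processing notes, and no label or header gives the background correction, normalization or offset. An offset would make differences smaller than true fold changes, most at low signal.

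A single gene symbol was annotated for 23521 of the 33793 features, several for 1814 and none for 8458; 23328 were matched through the Entrez identifier to RefSeq symbols (GRCm38.p6). Each gene took its feature with the highest mean. Genes above the floor (50th percentile of all values) on at least 1 array were compared. For counts at 2-fold, values under the floor were set to it. The spread used 20 bins of mean signal of compared genes. The level curve was a lowess (span 0.3) through medians of 0.1-wide level bins of at least 10 features, over all features (Python 3.11.15, statsmodels 0.14.6). The calculations were tested on simulated arrays with even noise and with changes larger than any receptor difference. The simulated level trend was straight and shallower than the real one at the levels of Mrc1 and Clec7a. How well the level adjustment works on these arrays was therefore not tested. No test between genotypes was made. Alternatives were median centring, quantile normalization, level adjustment, the mean of a gene's features, floors at the 25th and 75th percentiles and a 1.5-fold threshold.

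The receptor genes and the lists were chosen with earlier results of these data known. Named genes were the 10 receptors, Ssu72, in each surrounding list up to 2 highest and 2 lowest above the floor on both arrays and any past 2-fold, listed lectins next to the receptors on the chromosome, and the nearest gene to Mrc1 and Clec7a; Syk, the marker genes and the genes named as below the floor were added after their values were seen. Some listed genes are not reported here.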

Additional observations from a re-analysis of the deposited data

How the results depend on the processing

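The receptor median of -0.17 kept its sign under all 6 alternatives and was -0.30 over the 6 receptors left by a 75th-percentile floor. The count past 2-fold was 0 under every alternative run and 1 (Cd33) at 1.5-fold. That count at 1.5-fold is for the deposited scale, and Cd33 fell short of it when level-adjusted (-0.48) or quantile-normalized (-0.49). By gene, the sign turned for Mrc1 under quantile normalization (0.098) and level adjustment (0.14), for Clec7a under level adjustment (0.041; -0.0030 after quantile normalization), and for Clec4a2 under median centring (-0.0016) and quantile normalization (-0.0012). Of the lists, the dectin-induced median became -0.075 after quantile normalization and -0.054 when level-adjusted. With the floor at the 75th percentile, the median of kinases and phosphatases was -0.20 and that of the sialic acid genes turned to 0.061. The cause of these shifts was not tested. Over all compared genes, 11 were 2-fold lower and 4 higher as deposited, against 1 and 13 after quantile normalization and 1 and 11 when level-adjusted. No paired analysis was possible because each genotype had 1 array. Low signal limits Siglece, Clec4d, Clec4e and Clec4a2, which lie within 0.2 of the floor.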
